A study of Mus musculus with 6 samples.

Results

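Interferon-stimulated genes are the antiviral and immune genes that cells switch on when interferons bind their receptors, and 37 of them were followed in the left ventricle of sickle and control mice. The genes were chosen by name. A gene counted as measured where the array annotation gave a row of the deposited table to its symbol alone, which held for 33 of the 37 genes, among 21506 genes measured in all. Each of the 33 genes had 1 such row, so no choice between rows was needed. Gbp2 and Oas1a share their row with the close paralogs Gbp2b and Oas1g, and Gbp6 and Ifi44 had no row under their own symbol alone. Expression of these 4 genes was therefore not analysed here.

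In the 3 sickle mice human globin genes replaced the mouse alpha and beta loci on both chromosomes (Hba tm1(HBA)Tow with Hbb tm2(HBG1,HBB*)Tow), where HBB* is the sickle form of human beta-globin. The 3 control mice carried the same human alpha-globin allele with a non-sickling beta allele (Hbb tm3(HBG1,HBB)Tow). All were males of 10 to 14 weeks on a mixed B6;129 background, so both groups make human haemoglobin and neither group is a plain inbred strain. The study's title names interleukin-18, a cytokine known for inducing interferon-gamma, in the heart disease and arrhythmia of these mice, and the comparison is of sickle with control ventricle. Each mouse gave 1 Affymetrix Mouse Gene 2.0 ST array, and values are log2 RMA values, so a difference of 1 is a doubling.

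Sickle replicate 3 stood apart from the other arrays, with a score of 43.3 on the first principal component (43.9% of the variance) against -15.1 to -2.31 elsewhere. Genes more than 2-fold above the average of the remaining arrays of the group numbered 340 in it and 13 to 25 in each other array. The 12 cardiomyocyte markers were bright (the dimmest at the 92.9 percentile of all genes), which matches the tissue label. The ventricle was profiled as bulk tissue, so more cells of a type and more RNA per cell cannot be told apart.

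Type I interferons act through the receptor subunits IFNAR1 and IFNAR2 and the kinases JAK1 and TYK2. A complex that holds STAT2 and IRF9 then binds the interferon-stimulated response element, a short motif in promoters. Interferon-gamma acts through its own receptor and strongly induces guanylate-binding proteins and immunity-related GTPases. Some interferon-stimulated genes are also transcribed without interferon.

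The promoters of the 3 genes on which the results turn, of the 3 brightest other members and of Cmpk2, the neighbour of Rsad2, are shown because the response element is the feature these genes are known to share. Sequences are from RefSeq on GRCm38.p6 and run from 250 bases before to 50 bases after the start, 5′ to 3′ on the gene's strand. Capitals mark the response element core, GAAA, any 2 bases and GAAA again, on either strand. Isg20 has 3 listed starts, of which the first by position is shown.
Rsad2 (chr12:26456403-26456702, minus strand): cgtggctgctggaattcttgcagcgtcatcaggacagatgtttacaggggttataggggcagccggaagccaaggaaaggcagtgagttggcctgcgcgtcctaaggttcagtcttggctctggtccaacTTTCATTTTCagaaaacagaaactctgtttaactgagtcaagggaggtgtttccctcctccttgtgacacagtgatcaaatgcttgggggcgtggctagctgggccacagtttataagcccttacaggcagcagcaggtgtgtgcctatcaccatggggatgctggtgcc
Isg20 (chr7:78913174-78913473, plus strand): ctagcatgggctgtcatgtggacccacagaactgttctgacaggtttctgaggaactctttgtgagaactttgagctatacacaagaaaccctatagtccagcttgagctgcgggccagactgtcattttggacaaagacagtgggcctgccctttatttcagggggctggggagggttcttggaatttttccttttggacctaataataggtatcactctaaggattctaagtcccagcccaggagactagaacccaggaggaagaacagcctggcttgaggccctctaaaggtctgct
Isg15 (chr4:156200769-156201068, minus strand): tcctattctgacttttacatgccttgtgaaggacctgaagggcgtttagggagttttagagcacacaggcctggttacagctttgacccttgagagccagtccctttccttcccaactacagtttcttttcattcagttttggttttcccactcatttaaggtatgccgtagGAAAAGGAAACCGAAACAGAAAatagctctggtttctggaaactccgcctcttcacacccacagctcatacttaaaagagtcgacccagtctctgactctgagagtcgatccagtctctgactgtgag
Gbp7 (chr3:142530086-142530385, plus strand): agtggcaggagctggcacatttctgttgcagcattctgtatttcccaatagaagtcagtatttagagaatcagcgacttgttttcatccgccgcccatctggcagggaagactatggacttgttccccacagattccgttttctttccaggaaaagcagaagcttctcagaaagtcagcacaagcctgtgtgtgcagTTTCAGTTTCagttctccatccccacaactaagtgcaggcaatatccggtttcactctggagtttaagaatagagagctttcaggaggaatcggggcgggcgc
Ifih1 (chr2:62646206-62646505, minus strand): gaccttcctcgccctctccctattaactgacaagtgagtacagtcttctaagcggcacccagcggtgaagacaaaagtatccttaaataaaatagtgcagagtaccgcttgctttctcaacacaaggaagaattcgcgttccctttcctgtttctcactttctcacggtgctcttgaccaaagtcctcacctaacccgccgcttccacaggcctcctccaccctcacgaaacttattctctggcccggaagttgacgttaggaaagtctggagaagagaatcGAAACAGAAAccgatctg
Xaf1 (chr11:72301379-72301678, plus strand): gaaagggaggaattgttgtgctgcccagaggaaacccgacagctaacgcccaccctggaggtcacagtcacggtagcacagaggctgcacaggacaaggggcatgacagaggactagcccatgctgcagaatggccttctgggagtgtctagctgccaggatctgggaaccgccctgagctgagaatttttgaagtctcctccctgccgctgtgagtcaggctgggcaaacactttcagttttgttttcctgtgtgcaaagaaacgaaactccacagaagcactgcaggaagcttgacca
Cmpk2 (chr12:26468965-26469264, plus strand): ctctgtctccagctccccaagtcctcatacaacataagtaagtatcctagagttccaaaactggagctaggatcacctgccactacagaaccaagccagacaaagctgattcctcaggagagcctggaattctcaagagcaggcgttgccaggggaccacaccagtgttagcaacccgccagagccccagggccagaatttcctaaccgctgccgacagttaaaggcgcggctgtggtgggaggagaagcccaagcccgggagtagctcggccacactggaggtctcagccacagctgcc
The Isg15 promoter held 3 overlapping matches and the Rsad2, Gbp7 and Ifih1 promoters 1 each, whereas no match was found in the windows of Xaf1, Cmpk2 or any of the 3 Isg20 starts. Of the 28 listed genes with a promoter sequence, 14 held the core, against 3.99% of 27025 genes. The 28 include Gbp2, Oas1a and Ifi44, whose expression was not analysed, and Gbp2 and Oas1a are among the 14. The GAS core TTCNNNGAA, the site of interferon-gamma signalling, was in 8 of the 28 (28.6%, against 9.55% of genes), Isg20 among them. The GATA core AGATAA was in 6 of the 28 (21.4%, against 12.7% of genes), also with Isg20 among them. In Isg20 the GAS core lay in the window of the first start, which is shown. The GATA core lay in that of the last start by position, which is not shown. All motifs were searched on both strands, and the response element and GAS cores can share bases, so a stretch may count for both. Measured members with the response element core (12 genes) had a median difference of -0.07 and a range from -0.89 to 2.10, and those without it (13 genes) had -0.04 and a range from -0.30 to 2.00. The highest value in each set is that of 1 gene, Rsad2 with the core and Isg20 without it, and the lowest with the core is that of Bst2.

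Rsad2, Isg20 and, less firmly, Isg15 stood far above the rest of the interferon-stimulated genes in sickle ventricle. Rsad2 rose 4.29-fold and Isg20 3.99-fold, and both passed the test. Isg15 was 2.18-fold higher with no overlap between the groups but did not pass. The other 30 measured members had a median difference of -0.05, close to the -0.01 of all genes, and none of them passed (at an unadjusted p under 0.05 there were 2 in limma, Oas3 higher and Bst2 lower).

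Rsad2 encodes viperin, a radical SAM enzyme that makes a chain-terminating nucleotide and blocks virus replication. It had 9.79, 10.04 and 10.15 in sickle replicates 1, 2 and 3, against 8.06, 7.82 and 7.80 in control replicates 1, 2 and 3. Every sickle array was far above every control array, and the gap between the groups was many times the spread within them. The difference was 2.10 ± 0.13 (SE; limma adjusted p = 0.00274), with means of 9.99 ± 0.18 in sickle and 7.89 ± 0.14 in control (SD, n = 3 each). Rsad2 had the second smallest p of all 21506 genes and kept its call with any 1 array left out (adjusted p from 0.00260 to 0.0433).

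Isg20 encodes an exonuclease that degrades RNA. It had 8.32, 9.07 and 8.81 in the 3 sickle arrays, against 6.73, 6.79 and 6.69 in the 3 control arrays. The control arrays were nearly equal and the sickle arrays were spread over a wider range, with replicate 1 the lowest. The difference was 2.00 ± 0.18 (limma adjusted p = 0.0109). With control replicate 1, 2 or 3 left out the difference stayed between 1.97 and 2.02 but the call was lost (adjusted p = 0.0719, 0.0768 and 0.102). Isg20 lies on chromosome 7, as does the engineered beta-globin locus, with 307 protein-coding genes of the annotation between Isg20 and Hbb-bs. DNA carried along with the engineered locus was not tested.

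Isg15 encodes a ubiquitin-like protein that is attached to other proteins during the antiviral response. It had 6.70, 7.15 and 7.38 in the 3 sickle arrays, against 6.38, 5.58 and 5.90 in the 3 control arrays. The groups did not overlap, but sickle replicate 1 was only slightly above control replicate 1, and the control arrays were spread widely. The difference was 1.13 ± 0.24 (limma adjusted p = 0.270, 95% interval 0.57 to 1.68), and it ranged from 0.94 to 1.34 with 1 array left out, without passing the test in any of these fits.

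**Figure D1:**
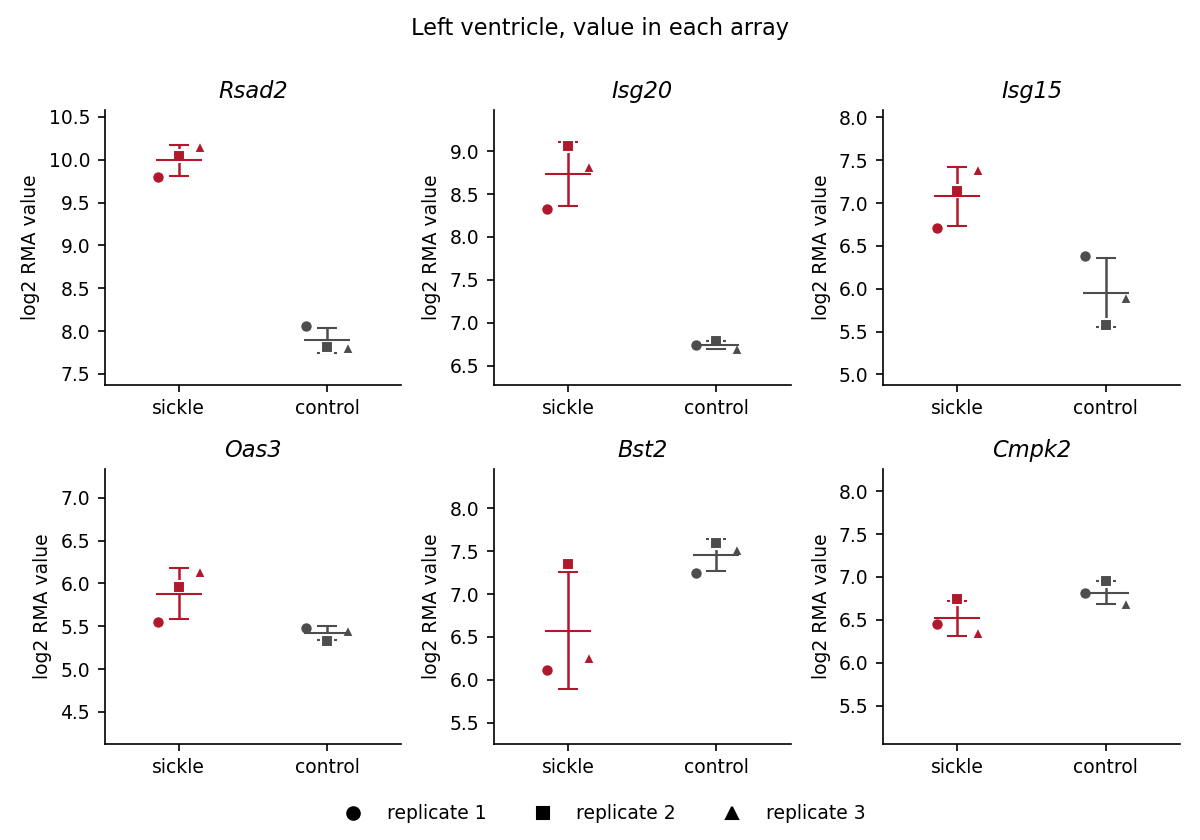
Log2 RMA values of 6 interferon-stimulated genes in each array (symbols mark the replicates, bars the mean ± SD, n = 3 per group), with the same height of axis in each panel. Sickle arrays lay above control arrays for Rsad2, Isg20, Isg15 and, narrowly, Oas3, while Bst2 and Cmpk2 overlapped between the groups.

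Over all 33 measured members, 2 rose at an adjusted p under 0.05 and 0 fell, where 0.167% of all genes were called higher and 0.0139% lower. The sickle arrays were all above the control arrays for 4 members (12.1%), namely Rsad2, Isg20, Isg15 and Oas3, against 7.61% of all genes, and all below them for 0 members, against 8.36%. At an unadjusted p under 0.05 there were 4 higher and 1 lower members, where 4.30% of all genes were higher, 4.38% lower and 8.69% either way. Of the other 30 members, 29 differed by less than 0.5, and Bst2 was beyond it, where 1.99% of all genes were higher and 0.888% lower by over 0.5. By sign the members were evenly divided, 17 higher and 16 lower, and their median difference was 0.01. Without the control arrays in turn the count of members called was 1 (Rsad2) in each fit, and it was 2 without each sickle array. With sickle replicate 3 and control replicate 3 left out together, 0 members passed, at differences of 1.98 for Rsad2 (limma adjusted p = 0.164) and 1.93 for Isg20 (limma adjusted p = 0.227).

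Rsad2, Isg20 and Isg15 were then set against each of the other 30 members within the same array. These 3 genes had been singled out with earlier results known, and the comparison does not correct for that choice. The within-array difference was higher in every sickle array than in every control array for 90 of 90 pairs. Exact two-sided permutation tests gave 0.1 for each pair. That is the smallest p that 3 against 3 arrays allow, so these tests could not reach 0.05. The 90 pairs reuse the same 3 genes and the same arrays, so their count is not independent support. For Rsad2 the excess over another member ranged from 1.64 (Oas3) to 2.99 (Bst2). It ranged from 1.54 to 2.88 for Isg20 and from 0.66 to 2.01 for Isg15. The same separation was found against 99.7% of all other genes for Rsad2, 99.6% for Isg20 and 90.0% for Isg15, so the other members behaved in this respect like most genes on the array. The 95% intervals of all 30 others ended below 1, the highest at 0.82 (Oas3), so a rise of the size seen for Rsad2 or Isg20 was outside the interval of each of them.

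**Figure D2:**
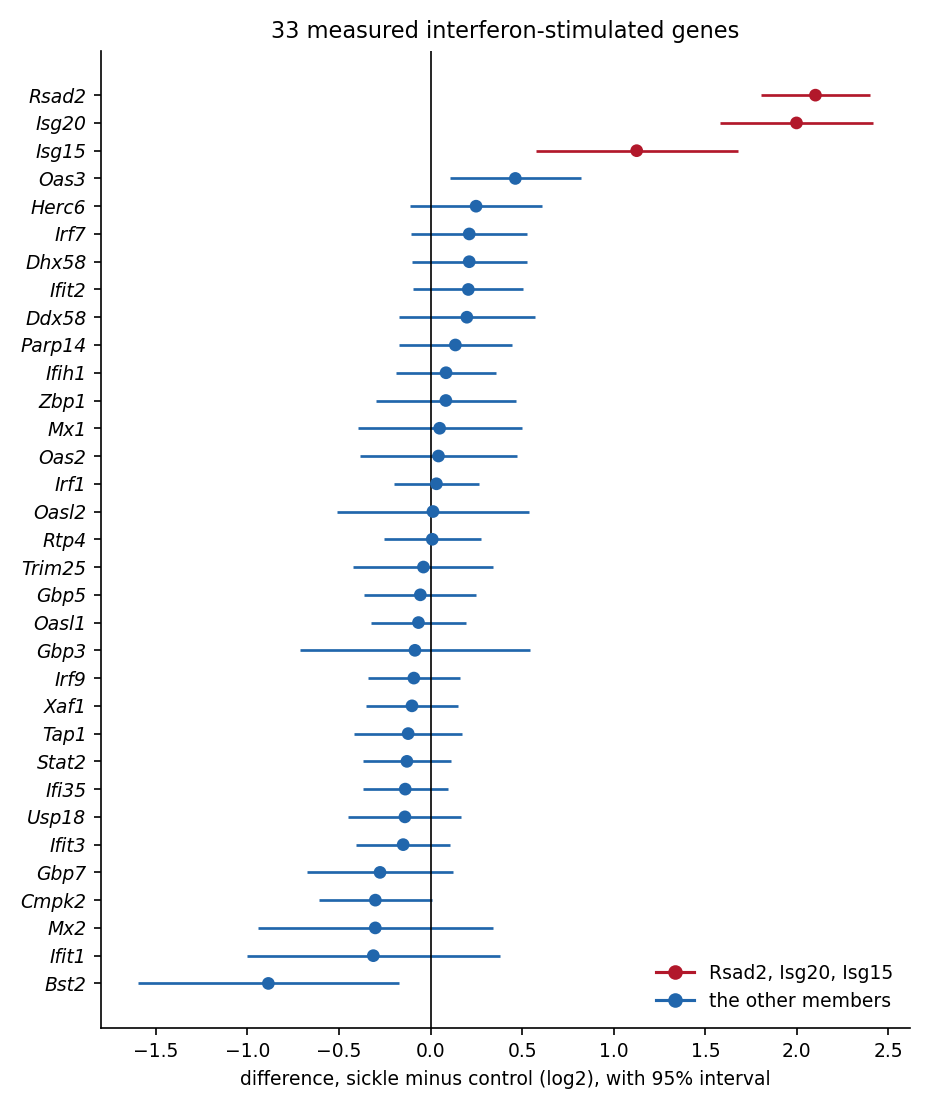
Difference between sickle and control (log2) for each of the 33 measured interferon-stimulated genes, with its 95% interval from limma, sorted by size. Rsad2, Isg20 and Isg15 lay between 1.13 and 2.10, and the other 30 genes lay between -0.89 and 0.46.

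Rsad2 and Cmpk2 are adjacent protein-coding genes on chromosome 12, which lie on opposite strands and are usually induced together by interferon. Cmpk2, a mitochondrial nucleotide kinase, had 6.46, 6.74 and 6.35 in sickle arrays, against 6.81, 6.96 and 6.68 in control arrays. Its values overlapped between the groups and averaged slightly lower in sickle (difference -0.30 ± 0.13, limma adjusted p = 0.580). Between Rsad2 and Cmpk2 the difference of differences was 2.40, with no overlap between the groups (exact permutation p = 0.1, the smallest that 3 against 3 arrays allow). This pair is among those counted above and is not a separate test.

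Among the transcription factors, the 4 members differed little. Irf7, the factor that amplifies the type I response, had 7.03, 7.19 and 7.45 in sickle arrays, against 7.10, 7.09 and 6.85 in control arrays (difference 0.21 ± 0.14). Irf9, the DNA-binding part of the complex, had 7.38, 7.56 and 7.72 in sickle arrays and 7.62, 7.64 and 7.67 in control arrays (-0.09 ± 0.11). The groups overlapped in both. Stat2 had -0.13 ± 0.10 and Irf1, a factor of the interferon-gamma response, 0.03 ± 0.10.

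All 4 sensors of foreign nucleic acid were slightly higher (Zbp1 was at -0.0087 with array weights), and none passed. Ifih1 (MDA5, a sensor of long double-stranded RNA) was the brightest, with 7.69, 7.76 and 7.84 in sickle arrays and 7.65, 7.87 and 7.51 in control arrays (0.08 ± 0.12). Ddx58 (RIG-I) had 0.20 ± 0.16, Dhx58 (LGP2, which modulates both) 0.21 ± 0.13 and Zbp1, a sensor of Z-form nucleic acid, 0.08 ± 0.16. In each of these genes the values of the 2 groups overlapped.

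The enzymes that act on ISG15 within the list did not share the shift of Isg15. Usp18, which removes ISG15 and restrains receptor signalling, had 6.28, 6.71 and 6.48 in sickle arrays, against 6.71, 6.70 and 6.49 in control arrays (-0.14 ± 0.13). Herc6, the mouse ligase for ISG15, had 0.25 ± 0.15, and Trim25, a ubiquitin ligase that activates RIG-I and was the brightest of this group, had -0.04 ± 0.16. Trim25 had 7.59, 7.41 and 8.05 in sickle arrays and 7.73, 7.78 and 7.65 in control arrays, so sickle replicate 3 was the highest and the other sickle arrays the lowest. Outside the list, Ube2l6, the conjugating enzyme for ISG15, rose 3.44-fold. It had 8.97, 9.38 and 8.96 in sickle arrays, against 7.46, 7.37 and 7.12 in control arrays (1.78 ± 0.15, limma adjusted p = 0.00870). The call on Ube2l6 was lost without control replicate 2 or 3 (adjusted p = 0.0696 and 0.0674). Uba7, the activating enzyme at the head of the same cascade, had 0.14 ± 0.19. The 6 measured genes of the ISG15 conjugation list outside the members were Uba7, Ube2l6, Herc3, Herc4, Arih1 and Usp16. Ube2l6 was the 1 that passed.

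The IFIT proteins, which bind viral RNA, were mixed. Ifit1 was the brightest, with 5.79, 6.79 and 6.93 in sickle arrays, against 6.77, 7.12 and 6.56 in control arrays. Sickle replicate 1 was about 1 unit below the other sickle arrays, and the groups overlapped (-0.31 ± 0.30). Ifit2 had 0.21 ± 0.13 and Ifit3 -0.15 ± 0.11.

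Among the oligoadenylate synthetases, which activate RNase L when they meet double-stranded RNA, Oas3 had the smallest unadjusted p of the other 30 members, and it did not pass. It had 5.55, 5.96 and 6.14 in sickle arrays, against 5.48, 5.32 and 5.45 in control arrays. The groups did not overlap, though sickle replicate 1 was just above the highest control array (0.46 ± 0.15, unadjusted p = 0.0180, limma adjusted p = 0.496). Oas2, the brightest of the group, had 7.07, 7.74 and 7.55 in sickle arrays, against 7.57, 7.46 and 7.21 in control arrays (0.04 ± 0.18). Oasl1 and Oasl2, which are related to these enzymes, had -0.07 ± 0.11 and 0.01 ± 0.23.

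The GTPases of the list were flat or slightly lower. Mx1 was dim, at the 12.3 percentile of genes, with 0.05 ± 0.19, and Mx2 had 4.37, 5.22 and 5.05 in sickle arrays, against 5.33, 5.53 and 4.69 in control arrays (-0.30 ± 0.28). The annotation lists both as transcribed pseudogenes in the reference strain. Gbp7, the brightest of the 30 other members, had 8.08, 8.47 and 8.37 in sickle arrays and 8.80, 8.70 and 8.24 in control arrays (-0.28 ± 0.17). Gbp3 (-0.09 ± 0.27) and Gbp5 (-0.06 ± 0.13) overlapped between the groups.

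Of the remaining effectors, Bst2, the surface protein tetherin that holds budding virus on the cell, differed by -0.89 ± 0.31. It had 6.11, 7.35 and 6.25 in sickle arrays, against 7.25, 7.60 and 7.52 in control arrays. Sickle replicates 1 and 3 were about 1 unit or more below every other array, sickle replicate 2 lay within the control range, and the gene did not pass (unadjusted p = 0.0213, limma adjusted p = 0.513). Without sickle replicate 2 its difference was -1.28, still short of the threshold (limma adjusted p = 0.0507), and it ran from -1.28 to -0.65 with 1 array left out. Xaf1, a factor linked to cell death, was the brightest of this group, with 7.50, 7.65 and 7.83 in sickle arrays and 7.74, 7.78 and 7.77 in control arrays (-0.10 ± 0.11). Ifi35 had -0.14 ± 0.10, Tap1, a subunit of the peptide transporter for MHC class I, -0.12 ± 0.13, Parp14 0.14 ± 0.13 and Rtp4 0.01 ± 0.11, all with overlapping groups.

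Sickle replicate 1 was the lowest of the 3 sickle arrays for 26 of the 30 other members. The share of all genes lowest in that array was not counted, so this count is not shown to be particular to these members. Set against the control mean, these 30 genes had medians of -0.18, 0.00 and 0.08 in the sickle arrays 1 to 3, while the control arrays had -0.11 to 0.06. Rsad2, Isg20 and Isg15 were also lowest in sickle replicate 1, at 1.90, 1.59 and 0.75 above their control means. In sickle replicate 1 the other 30 members were, at the median, below those of every control array (-0.18 against -0.11 at the lowest). A link between these values was not tested.

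**Figure D3:**
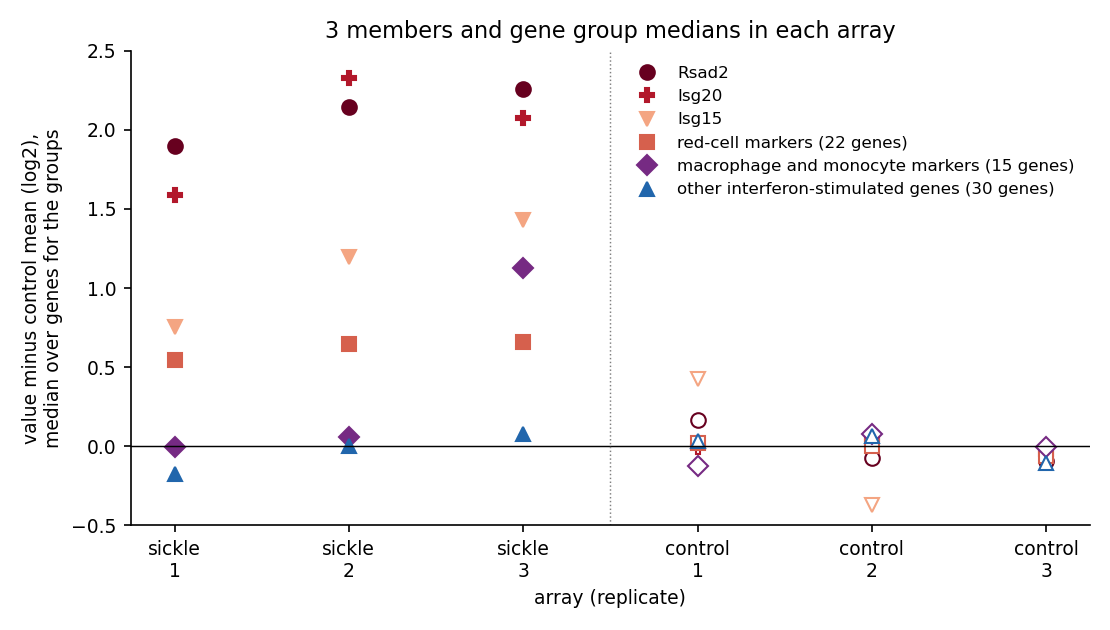
Values minus the control mean (log2) in each array for Rsad2, Isg20 and Isg15, and the median over genes for red-cell markers, macrophage and monocyte markers and the other 30 interferon-stimulated genes (filled symbols, sickle; open symbols, control). The red-cell median was 0.54 to 0.66 in the sickle arrays, the macrophage median was high in sickle replicate 3 alone, and the other interferon-stimulated genes stayed near 0.

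Upstream in the pathway, no interferon gene passed. The 17 measured ligand genes were mostly dim (median at the 24.2 percentile of genes) and had a median difference of -0.01, with 6 higher and 11 lower. Ifnb1 had 3.21, 3.08 and 2.88 in sickle arrays, against 3.17, 3.49 and 3.38 in control arrays (-0.29 ± 0.13), and Ifna2 had -0.42 ± 0.20. Ifng, named here because interleukin-18 is known to induce it, had 4.23, 4.41 and 4.28 in sickle arrays, against 4.31, 4.49 and 4.44 in control arrays (-0.11 ± 0.10, 95% interval -0.34 to 0.12). These genes were near the dim end of the array, and a change in a small number of cells may not be detectable in bulk tissue with 3 arrays per group.

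The receptors differed little. They were bright, apart from Ifnlr1 of the interferon-lambda receptor at the 49.9 percentile of genes. All 6 were higher by a median of 0.11 (Ifnar1 was at -0.011 with array weights) and none passed, with Ifngr1 at 0.22 ± 0.15 and Ifngr2 at 0.12 ± 0.11. The type I receptor genes Ifnar1 and Ifnar2 had 0.10 ± 0.15 and 0.09 ± 0.11. Of 11 measured signalling genes and brakes 0 passed, with a median of 0.10. Irf8, a factor of myeloid and B cells, had 6.19, 6.37 and 6.70 in sickle arrays, against 5.85, 6.21 and 5.85 in control arrays (0.45 ± 0.16). Jak2, the kinase of the interferon-gamma and erythropoietin receptors, had 0.26 ± 0.12. For 4 of these 11 genes (36.4%) the sickle arrays were all above the control arrays, against 7.61% of all genes.

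Of 15 further sensors and adaptors 14 were higher, by a median of 0.19, and 0 passed. For 5 of the 15 (33.3%) the sickle arrays were all above the control arrays, against 7.61% of all genes. Ikbke, a kinase that activates IRF3, had 5.43, 5.62 and 5.94 in sickle arrays and 5.16, 5.33 and 5.08 in control arrays (0.47 ± 0.14). Sting1, the adaptor of cytosolic DNA sensing, had 0.52 ± 0.18. The median of this list relative to the control mean was 0.02, 0.12 and 0.36 in sickle replicates 1, 2 and 3, so it was highest in the array in which macrophage markers were highest. The difference of the list's median was 0.12 without sickle replicate 3.

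Among 61 other measured interferon-induced genes 0 passed, and the median was 0.03, with 32 higher and 29 lower. The sickle arrays were all below the control arrays for 8 of them (13.1%, against 8.36% of all genes) and all above for 6 (9.84%, against 7.61%). The 2 with the smallest p were guanylate-binding protein genes. Gbp10 had 7.91, 7.93 and 7.66 in sickle arrays, against 8.30, 8.33 and 8.22 in control arrays (-0.45 ± 0.11, limma adjusted p = 0.352). Gbp11 was dim and had -0.42 ± 0.10 (limma adjusted p = 0.328).

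All 10 guanylate-binding protein and immunity-related GTPase genes of that list were lower in sickle, by a median of -0.36, and for 7 of the 10 the groups did not overlap, against 8.36% of all genes. This group was picked from the 61 genes after the values were seen, so that count supports nothing, and none of its genes passed. Iigp1 had 8.02, 8.68 and 8.10 in sickle arrays, against 8.88, 9.32 and 8.82 in control arrays (-0.74 ± 0.21, limma adjusted p = 0.424). Irgm2 had -0.64 ± 0.17 and Igtp -0.42 ± 0.12, while Irgm1 had -0.06 ± 0.12 and Gbp4 -0.03 ± 0.26. Set against the control mean, the medians of the 10 genes were -0.33, -0.33 and -0.26 in the 3 sickle arrays and -0.18 to 0.13 in the control arrays. Without sickle replicate 3 their median difference was -0.36. These values rest on the same choice of genes and add no support. Several of these genes are close copies of each other, and probes shared between copies were not tested. Class I antigen presentation genes, also targets of interferon-gamma, had a median of -0.07 (2 of 12 higher, 0 past the test), with H2-Q4 at -0.20 ± 0.15 and B2m at -0.14 ± 0.14.

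**Figure D4:**
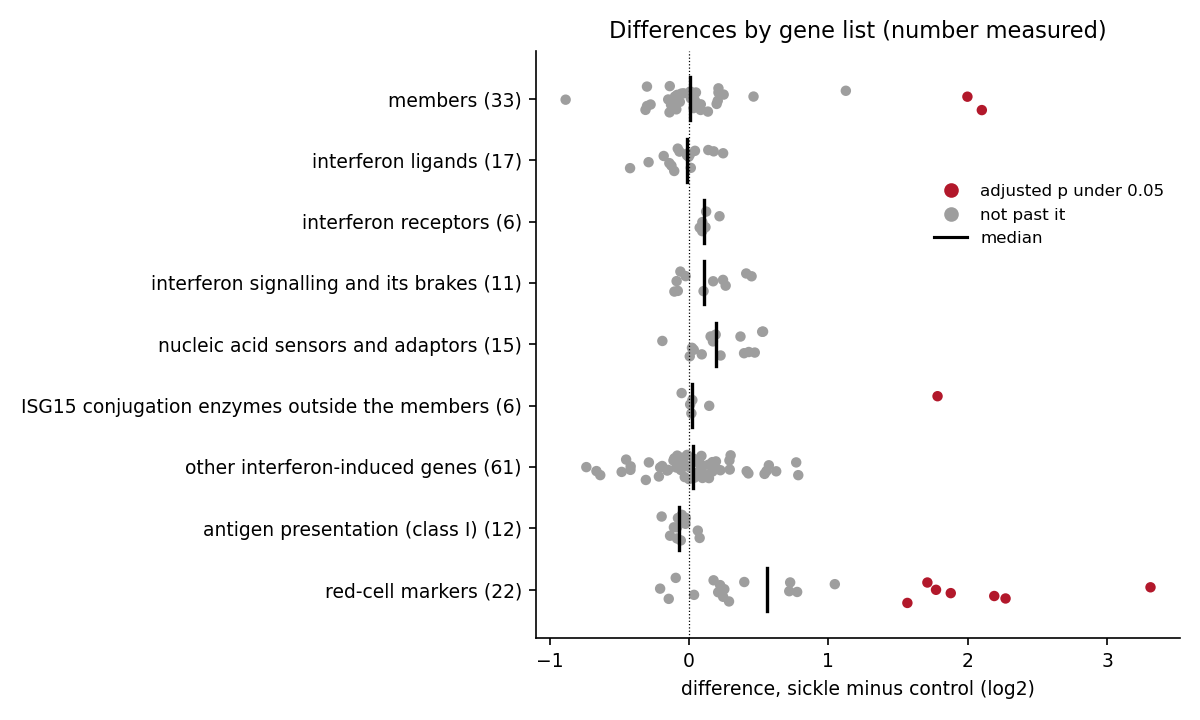
Difference between sickle and control (log2) of every measured gene by list, with a small vertical scatter, the median as a bar and genes past an adjusted p of 0.05 in red. Calls were made for Rsad2 and Isg20 among the members, for Ube2l6 in the ISG15 conjugation list and for 7 red-cell markers.

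Red-cell markers were higher in the same arrays as Rsad2, Isg20, Isg15 and Ube2l6. Of 22 measured red-cell markers 19 were higher and 7 rose after adjustment over all genes, and the sickle arrays were all above the control arrays for 14 (63.6%, against 7.61% of all genes). The 7 were Slc4a1 (the band 3 anion exchanger, 3.31 ± 0.30), Epb42 (protein 4.2 of the membrane skeleton, 2.27 ± 0.29), Trim10 (2.19 ± 0.25), Slc25a37 (the mitochondrial iron importer, 1.88 ± 0.22), Mkrn1 (1.77 ± 0.19), Bpgm (1.71 ± 0.12) and Rhag (1.57 ± 0.21). With control replicate 1, 2 or 3 left out 2, 1 and 0 of these 7 calls were kept, and 2 without sickle replicate 2 and 3 without sickle replicate 3. The differences of Rsad2 and Isg20 were inside the range of these 7, and that of Isg15 was below it. That range is high by selection, since the 7 are the markers past the test. Over all 22 markers the median difference was 0.56 and the range ran from -0.21 to 3.31. The summed linear level of the 22 markers ran from 6832 to 9108 in sickle arrays and from 3539 to 4122 in control arrays. The sum of all 33 interferon-stimulated genes ran from 4514 to 5768 in sickle arrays and from 3939 to 4446 in control arrays. Within that sum, Rsad2, Isg20 and Isg15 alone ran from 1312 to 1754 in sickle arrays and from 384 to 456 in control arrays. The part of red-cell RNA in the rise of Rsad2, Isg20, Isg15 and Ube2l6 was not tested.

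Lymphocyte markers were also higher, 13 of 14 with a median of 0.29, and Cd79a of the B-cell receptor rose by 1.12 ± 0.15 (limma adjusted p = 0.0484). The call on Cd79a was lost without any 1 of the 6 arrays (adjusted p from 0.0600 to 0.231). Their summed linear level was 541 to 584 in sickle arrays and 393 to 427 in control arrays. Macrophage and monocyte markers (13 of 15 higher, 0 past the test) had medians of -0.01, 0.06 and 1.13 in the 3 sickle arrays, the last being replicate 3, and their median difference of 0.43 was 0.05 without sickle replicate 3. Their summed linear level was 3059 to 6956 in sickle arrays and 2805 to 3258 in control arrays. Csf1r had 8.12, 8.15 and 9.09 in sickle arrays, against 7.81, 7.90 and 7.75 in control arrays, and Lyz2 had 0.71 ± 0.30. Without sickle replicate 3 the differences of Rsad2 and Isg20 were 2.02 and 1.96. The part of macrophage RNA in them was not tested. For Oas3 the difference was 0.34 without that array and for Isg15 it was 0.97.

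Plasmacytoid dendritic cells are the main producers of type I interferon in blood, and their markers did not pass. Of 6 markers, Irf8 among them, 5 were higher, with a median of 0.19. The defining marker Siglech had 4.75, 4.43 and 5.04 in sickle arrays, against 4.79, 5.04 and 4.72 in control arrays, and Ly6d had 0.32 ± 0.17. Among the other cell types, 0 markers passed for neutrophils (Ngp 0.25 ± 0.10 and Camp -0.30 ± 0.18), platelets (Ppbp 0.61 ± 0.23 and Itgb3 0.48 ± 0.29), endothelium (Vwf 1.13 ± 0.22 and Flt1 0.21 ± 0.09) and cardiomyocytes (Tnni3 -0.11 ± 0.10 and Myl2 -0.15 ± 0.18). The median differences of these 4 lists were 0.11, 0.01, 0.10 and -0.02.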

How the data were processed

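Total RNA of 6 ventricles, 3 per group, was measured on 1 array each, and groups and replicate numbers are those of the sample titles. The authors deposited log2 values made with RMA, which corrects background, normalises by quantiles and summarises probes, per the submitters' processing notes. That the scale is log2 follows from the range of the values. RMA settings and scan dates: not given in the sources used here. Of 25293 rows, 22030 had exactly 1 symbol, 685 several and 2578 none. The brightest row by mean over the 6 arrays stood for each of 21506 genes. RefSeq names and promoters are of assembly GRCm38.p6.

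Limma 3.58.1 in R 4.3.3 was fitted over all genes with group as the only term (residual degrees of freedom 4, prior 3.61), as a two-sided test with Benjamini-Hochberg adjustment over all genes at 0.05. Errors are moderated standard errors, and every adjusted p is from limma. No filter on dim genes was set. Nothing states that the mice were from separate litters or cages, so p-values measure the spread between these samples. Arrays have no read depth, and their number limits the precision. The members and lists were chosen with earlier results of these data known. Values in each array are given for Rsad2, Isg15, Isg20, members at an adjusted or unadjusted p under 0.05 and, of the members then left, the brightest of each role group (Cmpk2 beside Rsad2 and Isg20). From other lists the genes past the test or the 2 with the smallest p are named. Usp18, Irf7, Ifng, Ifnar1, Ifnar2, Uba7, Siglech, Iigp1, Irgm1, Irgm2, Igtp and Gbp4 were named beyond that rule. The fit was tested on simulated data with known changes. It called 12 of 67 genes changed 1.5-fold, 50 of 67 changed 2-fold and 64 of 66 changed 4-fold. Of its 134 calls 8 were false. Most changes of 1.5-fold were therefore missed in the simulation. Exact permutation tests used scipy 1.17.1 and figures matplotlib 3.10.9. Alternatives were an intensity trend in the variance, leaving out the dimmer genes or single arrays, second quantile normalisation, median centring, array weights, a replicate block and the mean over rows.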

Additional observations from a re-analysis of the deposited data

How the results depend on the processing

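With 3 arrays per group, single arrays decided several calls. Over all genes 39 passed, 12 with the replicate number as a block and 0 without sickle replicate 3 and control replicate 3 together (limma, added after seeing the data, 2 arrays a group, with 1785 genes at an unadjusted p under 0.05), with a range of 4 to 36 when 1 array was left out. Among the members 2 passed, 0 without those 2 arrays and 1 to 2 with 1 array left out. Rsad2 had 1.98 without the 2 arrays (adjusted p = 0.164, and 0.000526 to 0.0433 in its other alternatives) and 2.02 to 2.20 with 1 left out. Isg20 had 1.93 without them (adjusted p = 0.227, and 0.00260 to 0.102 in the others) and 1.83 to 2.20 with 1 left out. Isg15 did not pass in any of 14 alternatives. Whether same-numbered arrays shared more than a number is not stated. Their deviations from the group means correlated at 0.110, -0.0459 and 0.0543, and those of differently numbered arrays at -0.122 to 0.0694. With 3 arrays per group these values cannot decide it. With that replicate block the adjusted p was 0.0399 for Rsad2 and 0.0409 for Isg20. No member other than Rsad2 and Isg20 passed in any alternative, and 12 of the other 30 changed sign in some alternative. The median of the red-cell markers was 0.56, and it was 0.73 without the dimmer genes, 0.34 with the mean over rows of a gene and 0.52 to 0.66 with 1 array left out. The 7 red-cell calls were 1 under the block and 0 without replicate 3 of both groups. The dim-gene filter gave no value for Oas3, Mx1, Mx2, Gbp3, Gbp5, Dhx58 and Zbp1, which it removed. The cause was not tested.

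Near 0 the signs were not stable. With 1 array left out the difference reached 0.18 for Ifih1 and 0.14 for Ifnar2, and it ran from -0.52 to 0.042 for Ifit1, from -0.00055 to 0.088 for Irf1, from -0.15 to 0.0097 for Oasl1, from -0.23 to 0.17 for Oasl2, from -0.10 to 0.24 for Oas2, from -0.11 to 0.26 for Mx1, from -0.41 to 0.19 for Gbp3, from -0.14 to 0.079 for Gbp5, from -0.067 to 0.070 for Rtp4, from -0.22 to 0.097 for Trim25, from -0.039 to 0.23 for Zbp1, from -0.29 to 0.073 for Myl2 and from -0.083 to 0.19 for Ifnar1. Without replicate 3 of both groups it was -0.65 for Ifit1, -0.44 for Gbp3, -0.16 for Gbp5, -0.26 for Trim25, -0.021 for Irf1, 0.021 for Oasl1, -0.36 for Oasl2, -0.11 for Oas2, -0.049 for Mx1, -0.039 for Ifih1, -0.039 for Rtp4, -0.13 for Zbp1, 0.066 for Myl2, -0.070 for Ifnar1 and -0.042 for Ifnar2. With array weights it was -0.15 for Oasl2, -0.032 for Oas2, -0.0021 for Rtp4, -0.0087 for Zbp1 and -0.011 for Ifnar1. With a second quantile normalisation it was -0.018 for Oasl2 and -0.012 for Rtp4. With median centring it was -0.013 for Oasl2 and -0.017 for Rtp4.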
